A study of Mus musculus with 4 samples.

Results

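The genes described here are 9 long noncoding RNAs, Malat1, Neat1, Meg3, Miat, Rmst, Snhg11, Snhg14, Kcnq1ot1 and Gas5, together with ND5, a protein-coding gene of the mitochondrial genome. They are 10 of the 18193 genes that the array annotation names by a single symbol, and every probe set (a group of short probes against 1 transcript) whose only symbol is 1 of these names was used, 40 of 45037 tested. RNA was measured in adult mice of 6 to 12 weeks and both sexes from the Slc6a3 JD1640 TRAP line, in 2 arrays of TRAP RNA (replicates 2 and 4) and 2 arrays of input RNA (replicates 1 and 2), each from a pool of 5 midbrains. The labels describe the input arrays as unbound or total RNA. All mice of both fractions were trans-heterozygous for a modified Slc6a3 BAC that drives EGFP/RPL10A, a GFP-tagged protein of the large ribosomal subunit. The founders were FVB mice bred to C57BL6/j, all came from the same line, and no mice without the transgene were analysed here.

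TRAP pulls down tagged ribosomes from a tissue lysate together with the RNA attached to them. RNA that is kept in the nucleus is out of reach of cytosolic ribosomes, and transcripts of the mitochondrial genome are read by ribosomes inside the organelle, which do not contain RPL10A. Malat1 and Neat1 are abundant nuclear RNAs of speckles and paraspeckles, and Meg3, Snhg14 and Kcnq1ot1 come from imprinted domains where only the allele of 1 parent is transcribed. Gas5, Snhg11 and Snhg14 are host transcripts, whose introns carry small nucleolar RNAs (snoRNAs).

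The members were picked with the TRAP and input values of these arrays already known, so their differences are a description, and no p is given for any of them. Counts of limma calls among them stand beside the share over all probe sets and support nothing. All 10 gene identifiers matched a RefSeq table of the mouse genome (GRCm38.p6), which lists 9 as lncRNA and ND5 as protein coding. Gas5 is known as a gene whose spliced RNA begins with a 5′ terminal oligopyrimidine tract, a run of C and T bases that starts with C and is typical of ribosomal protein and snoRNA host genes. For that reason 7 of the 9 start sites that the RefSeq promoter table holds for members are shown (that of Kcnq1ot1, which was not above background, and the second of Meg3 are left out), as 15 bases before the start in lower case and the first 15 transcribed bases in capitals.
Gas5, upstream start, chr1:161034586-161034615, plus strand: agggggcgggcccgcGAGCTCGACAGCCCG
Gas5, downstream start, chr1:161035151-161035180, plus strand: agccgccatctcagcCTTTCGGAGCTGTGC
Miat, chr5:112228934-112228963, minus strand: gaggctcgcagtagcCCCTTTGTGAGGCGC
Malat1, chr19:5802658-5802687, minus strand: ctccgggctctgcgtCAGGCATTCAGGCAG
Meg3, upstream start, chr12:109540981-109541010, plus strand: acccagccagcccctAGCACAGAAGACGAA
Snhg11, chr2:158375698-158375727, plus strand: cgcactgcggcactcACTCACGCACTCAGC
Snhg14, chr7:60450163-60450192, minus strand: gttgggagtgtgattAGTCAAGTCAGTGCA
A start with C and a run of at least 4 C or T bases, counted on the transcribed strand only, was found in 2 of the 7 members with an entry. These were Gas5 at its downstream start, with a run of 5, and Miat, with a run of 6. Of all 32851 promoters listed there, 3.76% had such a start. That share is per start site, whereas the members are counted per gene, and Gas5 and Meg3 have 2 start sites each. Among the other noncoding snoRNA host genes it was found in 2 of 14. Neat1, Rmst and ND5 had no entry.

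The authors' GCRMA values were converted from log2 to arbitrary expression units, and a probe set was termed above background when it reached 50 units on both arrays of at least 1 fraction. Of the 40 member probe sets 26 were above background, from 8 genes. Rmst and Kcnq1ot1 were below 50 units on every array, so neither was above background. On 24 of the 26 both TRAP arrays lay under both input arrays, a pattern seen on 24.9% of all 17073 probe sets above background. The other 2 were probe sets of Gas5, on which the fractions overlapped. The fitted TRAP level was lower than input by 4-fold or more on 23 of the 26 (7.25% of all probe sets above background) and by 10-fold or more on 16 (2.71%). The median log2 difference of TRAP minus input was -3.60 over the 26 probe sets and 0.44 over all probe sets above background (0.03 after centring the arrays on bright probe sets, a shift shared by all differences given below). With values under 50 units raised to 50 the member median was -3.40. At an adjusted p under 0.05 from limma 19 of the 26 were called lower and 0 higher (0 also at an unadjusted p under 0.05), against 9.13% called lower over all probe sets above background. The count was 9 without TRAP replicate 2 or input replicate 1, and 10 without TRAP replicate 4 or input replicate 2. Because a member passes the background filter through the fraction where it is high, and the genes were chosen from this contrast, nothing is read from these counts.

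**Figure D1:**
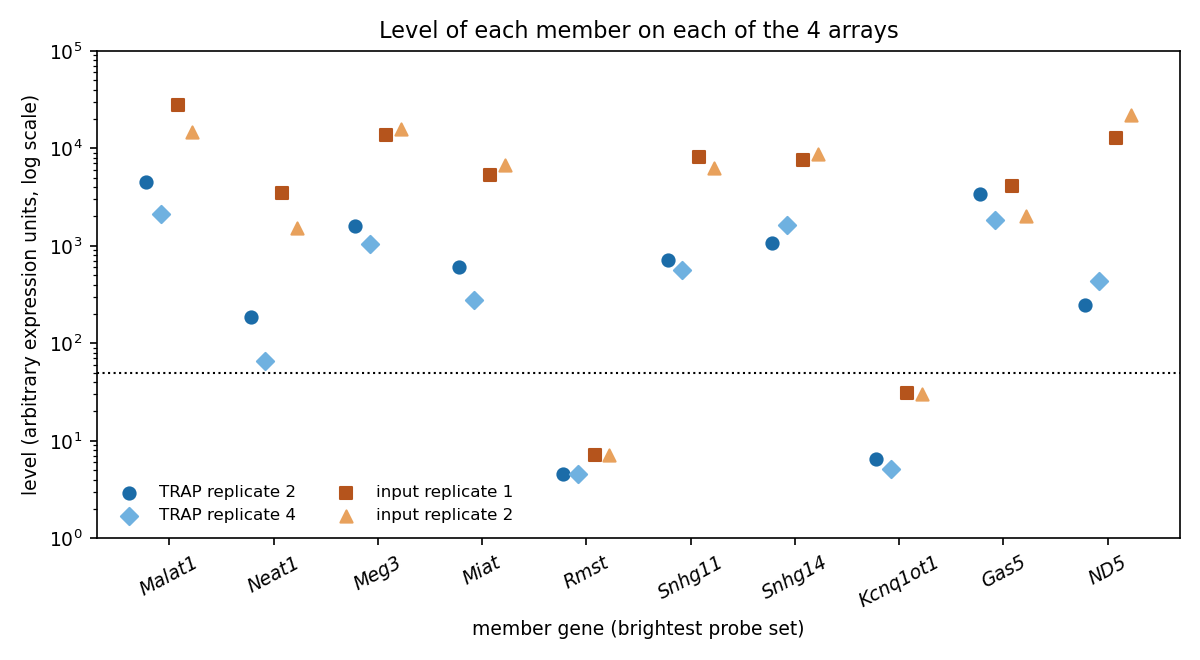
Level in arbitrary expression units (log scale) of the brightest probe set of each member on each array. Circles and diamonds are the 2 TRAP arrays, squares and triangles the 2 input arrays, and the dotted line marks 50 units. The TRAP arrays lie under the input arrays for 7 of the 8 genes above the dotted line, and the arrays of Gas5 overlap, with TRAP at 3358 and 1826 units and input at 4066 and 1998.

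Arrays of bulk RNA cannot separate fewer cells of a type from less RNA per cell. The dopamine neuron markers (Th, Slc6a3, Slc18a2, Ddc, Drd2, Pitx3, Nr4a2 and En1) were all above background. All 8 were called higher in TRAP at an adjusted p under 0.05 from limma, against 18.7% of all genes above background. Their median log2 difference was 5.38, or 4.03 with values under 50 units raised to 50, so the label of the TRAP fraction and these markers go together. Pitx3 and En1 were under 50 units on both input arrays. Pitx3 had the same value on both, so its p is not informative. The Gapdh control probe sets read higher at the 3′ end than at the 5′ end, by 4.96 and 3.52 log2 units in TRAP and by 6.81 and 6.39 in input, a measure of how far the labelled RNA reached. Its part in the values of the members was not tested.

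Malat1, a long nuclear RNA located in speckles where splicing factors gather, lies at chr19:5795690-5802672 and was represented by 7 probe sets. On the brightest, 1418189_s_at, it was measured at 4492 units on TRAP replicate 2, 2133 on TRAP replicate 4, 27591 on input replicate 1 and 14851 on input replicate 2. Both TRAP arrays lay under both input arrays, without overlap, and the log2 difference was -2.71 (standard error 0.65, n = 2 per fraction), so that 15.3% of the input level was left in TRAP. Probe set 1438403_s_at gave 583 and 220 units in TRAP and 11822 and 10211 in input, a log2 difference of -4.94. Probe sets of the same gene differed in how much signal TRAP retained. Over the 6 Malat1 probe sets above background the difference ran from -5.45 to -2.71, or 2.29% to 15.3% of input, and on all 6 the fractions did not overlap. The lowest, 1436202_at, was under 50 units on both TRAP arrays and is bounded at least 9.94-fold lower. The seventh, 1427285_s_at, did not reach 50 units on any array.

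Neat1, the RNA on which paraspeckles are built, lies next to Malat1 at chr19:5824708-5845480. On 1428083_at it was at 187 and 66.5 units on TRAP replicates 2 and 4, and at 3467 and 1524 units on input replicates 1 and 2. The fractions stood well apart, although the arrays of each fraction differed by more than 2-fold (2.81 in TRAP and 2.27 in input). The log2 difference was -4.37 (standard error 0.88, n = 2 per fraction), a 20.6-fold lower level in TRAP. Its other probe set stayed between 4.80 and 7.21 units. The protein-coding gene that follows Neat1 on the chromosome, Frmd8, was at 44.9 and 48.1 units in TRAP and 91.4 and 78.8 in input. The bound is at least 1.70-fold lower in TRAP with an adjusted p of 0.0265 from limma, which was above 0.05 whichever array was left out (0.00521 to 0.142 over the alternatives).

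Miat, also called Gomafu, is a nuclear RNA of neurons at chr5:112213228-112228948. On 1455325_at it was at 603 and 278 units in TRAP and 5379 and 6792 in input. The input arrays were close to each other, the TRAP arrays 2.17-fold apart, and the log2 difference was -3.88 (standard error 0.54, n = 2 per fraction), leaving 6.77% of the input level. The second Miat probe set was under 50 units on every array.

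Meg3 is transcribed from the maternal allele of the imprinted domain that also holds Dlk1, at chr12:109540996-109571729, and all of its 11 probe sets were above background. On the brightest, 1452905_at, it was at 1587 and 1032 units in TRAP and 13650 and 15768 in input. The 2 input arrays lay close together and about an order of magnitude above TRAP, with a log2 difference of -3.52 (standard error 0.30, n = 2 per fraction), an 11.5-fold lower level. Probe set 1436057_at gave the lowest value, -5.47 (standard error 0.06), with 51.9 and 47.3 units in TRAP and 2208 and 2183 in input. The highest was -2.47 on 1428765_at, so that between 2.26% and 18.0% of the input level remained across the 11 probe sets, and the fractions overlapped on none of them. On 2 of the 11, 1426758_s_at and 1436713_s_at, both TRAP arrays were under 50 units, and the level is at least 6.63-fold and 2.05-fold lower.

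The genes around Meg3 differed in direction. Dlk1, a transmembrane protein with EGF-like repeats that is transcribed from the paternal allele 77660 bases away, was at 15036 and 18882 units in TRAP and 2569 and 3724 in input on its brightest probe set. Both TRAP arrays were above both input arrays, with a log2 difference of 2.45 (standard error 0.29, limma adjusted p = 0.0239), and its call was lost whichever array was left out (adjusted p from 0.0101 to 0.130 over the alternatives). The other Dlk1 probe set above background, 1449939_s_at, was at 947 and 2093 units in TRAP and 17.5 and 19.4 in input. It was at least 28.15-fold higher in TRAP (limma, adjusted p = 0.0130). Rian, a noncoding RNA downstream of Meg3 that hosts snoRNAs and is expressed from the same allele, differed in extent between its probe sets. On 1427580_a_at Rian was at 7.76 and 8.64 units in TRAP and 206 and 99.1 in input. That is lower by at least 2.86-fold (limma, adjusted p = 0.0242, but 0.359 with values under 50 units raised to 50). Probe set 1428055_at was not above background. On 1440001_at it was at 5.52 and 5.89 units in TRAP and 512 and 436 in input, which is lower by at least 9.45-fold (limma, adjusted p = 0.000633, 0.000258 to 0.0243 over the alternatives). On its brightest probe set, 1452899_at, it was at 603 and 859 units in TRAP and 1495 and 1281 in input, a log2 difference of -0.94 that did not pass here (limma, adjusted p = 0.0852) but did after centring (0.0166) and quantile normalization (0.0371), within a range of 0.0166 to 0.302 over the alternatives. Mirg, the microRNA host gene of the same domain, was under 50 units on all arrays.

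Snhg14 is the long paternal transcript of the Prader-Willi and Angelman domain, at chr7:59272737-60450177, which hosts snoRNAs and runs antisense through Ube3a. On 1436964_at it was at 1079 and 1621 units in TRAP and 7508 and 8650 in input. Here TRAP replicate 4 was the higher TRAP array, the fractions did not overlap, and the log2 difference was -2.61 (standard error 0.29, n = 2 per fraction), or 16.4% of input. On 1455087_at TRAP was at 212 and 195 units and input at 906 and 346, a log2 difference of -1.46 (standard error 0.65), with the arrays of input 2.62-fold apart. The third probe set stayed near 5 units on all arrays. Ube3a, the ubiquitin ligase gene that Snhg14 overlaps, was at 2349 and 2628 units in TRAP and 2154 and 2395 in input. Its arrays overlapped and its log2 difference was 0.13 (standard error 0.10, adjusted p = 0.375 from limma), which became -0.28 after centring and -0.39 after quantile normalization. Snrpn, a splicing protein gene that Snhg14 also spans, was at 231 units on both TRAP arrays and 20.3 and 15.8 in input on 1432096_at, its probe set of a single symbol. It was at least 4.62-fold higher in TRAP (limma, adjusted p = 0.00382), the direction opposite to Snhg14, but a p is not informative where both arrays of 1 fraction hold equal values. The strand that each of these probe sets reads was not checked, and probe sets that carry both Snrpn and Snurf were left out.

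Kcnq1ot1, the paternal antisense RNA that silences genes of the Kcnq1 domain, lies at chr7:143213111-143296547 and had 6 probe sets. The brightest, 1458161_at, was at 6.49 and 5.11 units in TRAP and 31.3 and 30.0 in input, all under 50 units, so no fold is given. Rmst, an RNA of neural progenitors that acts with Sox2, was at 4.58 units on both TRAP arrays and 7.12 on both input arrays on the brighter of its 2 probe sets (chr10:92081746-92165178). The lowest value of any probe set was 4.58 units in TRAP and 4.59 in input, so Rmst lay at or near the floor of the arrays.

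Snhg11, a snoRNA host transcript of neurons at chr2:158375713-158386474, was measured on 2 probe sets. On 1434292_at it was at 708 and 567 units in TRAP and 8050 and 6278 in input, with little spread within a fraction and a log2 difference of -3.49 (standard error 0.22, n = 2 per fraction). On 1437311_at it was at 74.9 and 54.9 units in TRAP and 262 and 258 in input, a difference of -2.02 (standard error 0.21). Between 8.91% and 24.7% of the input level was left in TRAP. Of its neighbours, Lbp was under 50 units on all arrays and Ralgapb was at 621 and 735 units in TRAP and 655 and 983 in input, with overlap (adjusted p = 0.524 from limma).

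Gas5, a snoRNA host transcript at chr1:161034601-161038539 that accumulates when growth stops, did not separate the fractions on its bright probe sets. On 1419291_x_at, whose suffix marks probes that may also match other sequences, it was at 3358 and 1826 units on TRAP replicates 2 and 4 and at 4066 and 1998 on input replicates 1 and 2. The arrays within a fraction were 1.84-fold apart in TRAP and 2.04-fold in input, more than the fractions, and the log2 difference was -0.20 (standard error 0.63, n = 2 per fraction). On 1449410_a_at TRAP was at 679 and 315 units and input at 595 and 298, a difference of 0.14 (standard error 0.69) that became -0.27 after centring the arrays on bright probe sets and -0.24 after quantile normalization. The remaining 2 Gas5 probe sets were low and read differently. Probe set 1436222_at was at 4.75 and 4.64 units in TRAP and 89.2 and 34.1 in input, and 1424843_a_at at 5.85 on both TRAP arrays and 40.2 and 15.4 in input. A probe set shared with Snord47, a snoRNA of a Gas5 intron, was left out because it carries both symbols.

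**Figure D2:**
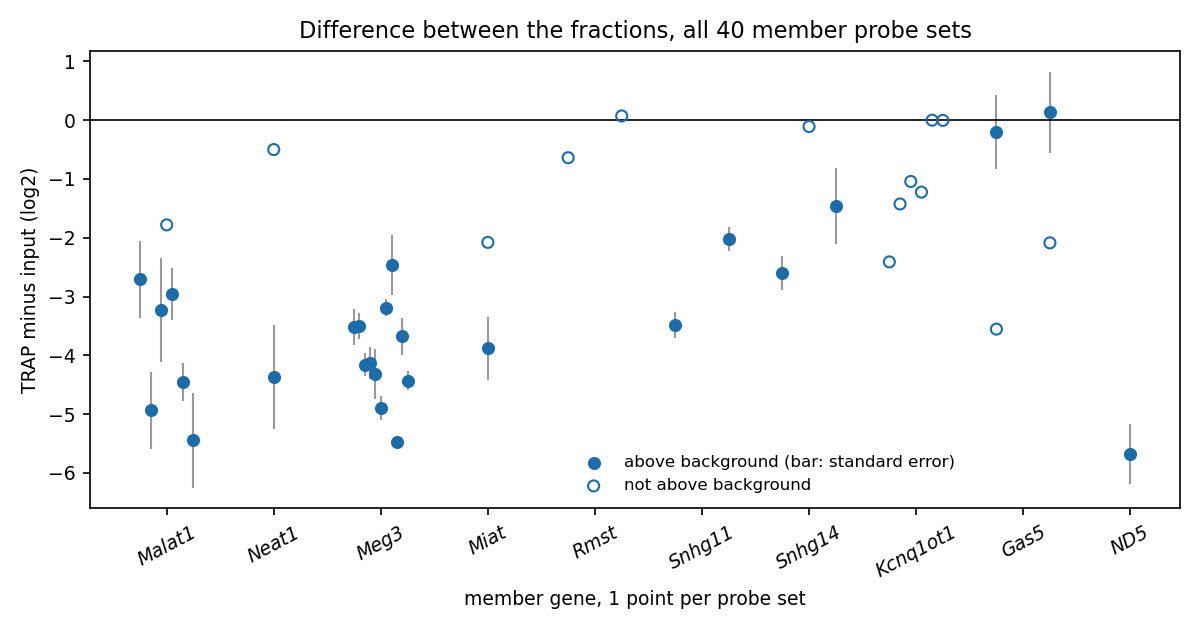
Log2 difference of TRAP minus input for each of the 40 member probe sets, grouped by gene. Filled points are above background and carry the standard error of the limma fit (n = 2 per fraction), and open points are not above background. Meg3 runs from -5.47 to -2.47, ND5 lies at -5.68 and the filled points of Gas5 at -0.20 and 0.14.

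ND5, a core subunit of respiratory complex I, is encoded at chrMT:11742-13565, where its last 14 bases overlap ND6 on the other strand. It was the only mitochondrially encoded gene with a probe set of a single symbol, so none of the other mitochondrial messages could be set beside it. On 1426088_at it was at 246 and 431 units on TRAP replicates 2 and 4 and at 12892 and 21709 on input replicates 1 and 2. All 4 arrays were above 50 units and the log2 difference of -5.68 (standard error 0.51, n = 2 per fraction), or 51.4-fold, left 1.95% of the input level in TRAP. TRAP replicate 4 was the higher TRAP array and input replicate 2 the higher input array, the reverse of Malat1, Neat1 and Gas5. Nuclear copies of mitochondrial sequence cannot be told apart from ND5 by these values.

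Most other subunits of complex I are encoded in the nucleus and made on cytosolic ribosomes. Of 36 such nuclear genes listed, 33 had a probe set and 32 were above background. In all 32 both TRAP arrays were above both input arrays, a pattern seen on 51.5% of all probe sets above background. The log2 differences ran from 0.27 (Ndufa12) to 1.98 (Ndufab1) with a median of 0.98, against 0.44 over the brightest probe sets of all 10014 genes above background. At an adjusted p under 0.05 from limma 14 rose and 0 fell (0 also at an unadjusted p under 0.05), where 18.7% of all genes above background were called higher. Ndufab1, the acyl carrier subunit, was at 13914 and 15134 units in TRAP and 3591 and 3786 in input (log2 difference 1.98, standard error 0.07, adjusted p = 0.00213 from limma). Ndufs3, a subunit of the peripheral arm, was at 2683 and 2797 units in TRAP and 743 and 809 in input (log2 difference 1.82, limma adjusted p = 0.00228). Both passed without any 1 of the arrays, whereas the number of subunits called was 5 or 6 with a TRAP array left out (replicate 4 or 2) and 8 with an input array left out. After centring on bright probe sets or quantile normalization the difference was positive for 30 of the 32, and centring moved the list's median to 0.57.

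The log2 differences of other long noncoding RNAs ran from -4.12 to 2.03. Of 48 listed genes 31 had a probe set and 16 were above background, and of 17 listed noncoding snoRNA host genes 13 and 10. Their median log2 differences were -1.06 and -0.38 (-1.03 and -0.31 with values under 50 units raised to 50). In the first list 4 genes were called lower and 0 higher at an adjusted p under 0.05 from limma, and in the second 2 and 0, beside 6.87% called lower over all genes above background. At an unadjusted p under 0.05 1 gene of the first list was higher and 0 of the second. For the 6 lower genes of both lists the count was 2 with either TRAP array left out and 4 with either input array left out, and 1 gene, Mir22hg, was called higher without input replicate 1.

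Oip5os1, also known as Cyrano, was at 2138 and 2155 units in TRAP and 14524 and 11041 in input (log2 difference -2.56, standard error 0.18, adjusted p = 0.00929 from limma, 0.00191 to 0.105 over the alternatives). The call was lost with either TRAP array left out. Mir124a-1hg, a host transcript of the neuronal microRNA miR-124, was at 57.3 and 35.9 units in TRAP and 936 and 663 in input (log2 difference -4.12, adjusted p = 0.0156 from limma, 0.00527 to 0.0915 over the alternatives), and its call was lost whichever array was left out. Ftx and Firre, X-linked RNAs of the nucleus, were below 50 units on both TRAP arrays, at least 2.03-fold and 2.70-fold lower (limma, adjusted p = 0.00636 and 0.0370), where Ftx had the same value on both TRAP arrays and its p is not informative. The call of Ftx was lost with either TRAP array left out (up to 0.0867, and 0.237 with values raised to 50), and that of Firre with either input array left out (up to 0.172).

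Several noncoding RNAs did not pass in either direction. Norad, an abundant cytoplasmic RNA that binds Pumilio proteins, was at 26060 and 28114 units in TRAP and 26650 and 24738 in input, with a log2 difference of 0.08 (standard error 0.07, adjusted p = 0.433 from limma) that became -0.33 after centring or quantile normalization. Tug1 was at 2142 and 3783 units in TRAP and 1494 and 1652 in input, a log2 difference of 0.86 that did not pass (adjusted p = 0.185 from limma) and was 0.45 after centring. Tunar was at 2257 and 1010 units in TRAP and 3474 and 5018 in input, without overlap (log2 difference -1.47, adjusted p = 0.157 from limma). The brightest snoRNA host genes were Snhg10, at 3182 and 1761 units in TRAP and 2044 and 1200 in input, Snhg1, at 1782 and 1269 units in TRAP and 2472 and 2117 in input, and Snhg8, at 1284 and 642 units in TRAP and 2847 and 1141 in input. On these probe sets Snhg10 and Snhg8 overlapped between the fractions, as Gas5 did, and Snhg1 did not (log2 difference -0.61, adjusted p = 0.162 from limma). Other Snhg1 probe sets above background went the other way. On 1433674_a_at the log2 difference was 0.84 with overlap. On 1433675_at it was 1.34 without overlap (adjusted p = 0.123 from limma). On 1447995_x_at Snhg10 was at 101 units on both TRAP arrays and 54.4 on both input arrays, so its p is not informative. Counted on the brightest probe set, 5 of the 10 snoRNA host genes above background overlapped, 4 had both TRAP arrays under both input arrays and 1 had both over. Of all probe sets above background 24.9% had both under and 51.5% both over, and the rest overlapped. Snhg7 and Snhg18 were called lower, but both were at under 10 units in TRAP with the same value on both arrays, and the bounds are at least 1.91-fold and 1.39-fold. Their p is not informative either.

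**Figure D3:**
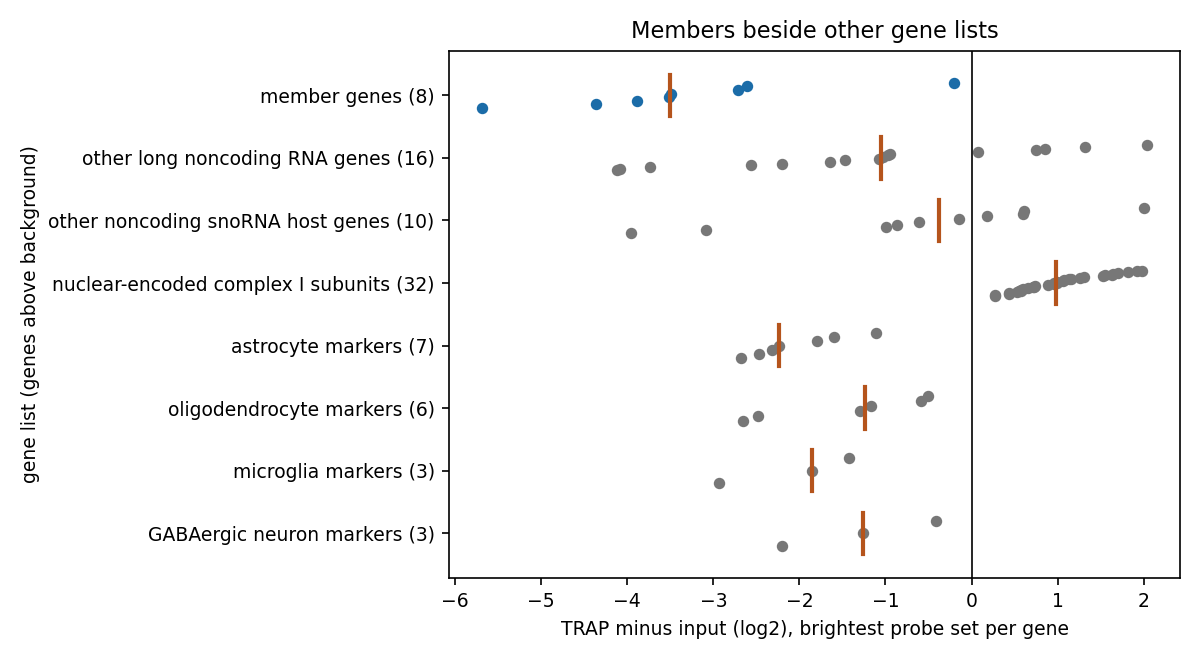
Log2 difference of TRAP minus input for the genes above background of each list, 1 point per gene (brightest probe set), with the median as a vertical line and the number of genes in parentheses. The median of the 8 member genes is -3.50, that of the 16 other long noncoding RNAs -1.06, that of the 10 snoRNA host genes -0.38 and that of the 32 nuclear-encoded complex I subunits 0.98.

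Markers of the other cells of the midbrain had negative differences too. At an adjusted p under 0.05 from limma 2 of 7 astrocyte, 0 of 6 oligodendrocyte, 1 of 3 microglia, 1 of 2 endothelial and 1 of 3 GABAergic neuron markers above background were called lower, against 6.87% of all genes above background. The fractions overlapped for 2 of the 6 oligodendrocyte, 1 of the 3 microglia and 2 of the 3 GABAergic neuron markers. For all other markers above background both TRAP arrays lay under both input arrays. Over all probe sets above background 24.9% had both TRAP arrays under both input arrays, 51.5% had both over, and the rest overlapped. All 7 astrocyte markers had a negative difference (median -2.24, or -1.79 with values raised to 50, summed level 9504 and 6371 units in TRAP and 23439 and 30591 in input). All 6 oligodendrocyte markers with a probe set were negative too (median -1.23, summed level 76528 and 33856 units in TRAP and 85976 and 93531 in input). A summed level leans on the brightest probe sets. Mbp alone was at 41048 and 18665 units in TRAP and 37197 and 41658 in input. The 3 microglia markers above background had a median of -1.86 and a summed level over all 6 of 994 and 460 units in TRAP and 1538 and 3182 in input, with Aif1, C1qa and Tmem119 below 50 units on every array. The 2 endothelial markers above background (of 5) had a median of -2.19 (-0.53 with values under 50 units raised to 50, Slco1a4 being under 50 on both TRAP arrays), with a summed level of 91.4 and 40.4 units in TRAP and 224 and 150 in input and Flt1, Pecam1 and Tek under 50 units throughout. The 3 GABAergic neuron markers had a median of -1.26 and a summed level of 5960 and 2839 units in TRAP and 12865 and 5968 in input. These medians lie between that of the members and 0, and the part of such cells in the values of the members was not tested.

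The 2 TRAP arrays were not alike for the members. Replicate 2 was the higher TRAP array on 21 of the 26 probe sets above background, 3 were lower and 2 had equal values, with a median difference of 0.42 log2 units for replicate 2 minus replicate 4. Of these 26, 11 belong to Meg3 and 6 to Malat1, so they are not separate genes, whereas the lists below are counted by gene. For comparison, replicate 2 was the higher TRAP array on 44.9% of all probe sets above background (median -0.01). The same direction was seen in the oligodendrocyte markers (6 of 6 higher on replicate 2, median 1.30), the GABAergic neuron markers (3 of 3, median 1.07), the microglia markers (3 of 3, median 0.77) and the astrocyte markers (6 of 7, median 0.76). It was also seen in the snoRNA host genes (8 of 10, median 0.58), the other long noncoding RNAs (10 of 16, median 0.40) and the complex I subunits (25 of 32, median 0.15), and the dopamine neuron markers went the other way (1 of 8 higher on replicate 2, median -0.33). The 3 member probe sets that were higher on TRAP replicate 4 were ND5, Snhg14 (1436964_at) and Meg3 (1429257_at). In input, 17 of the 26 were higher on replicate 1, with a median of 0.25 log2 units, against 49.3% of all probe sets above background. These differences describe single arrays and were not tested.

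**Figure D4:**
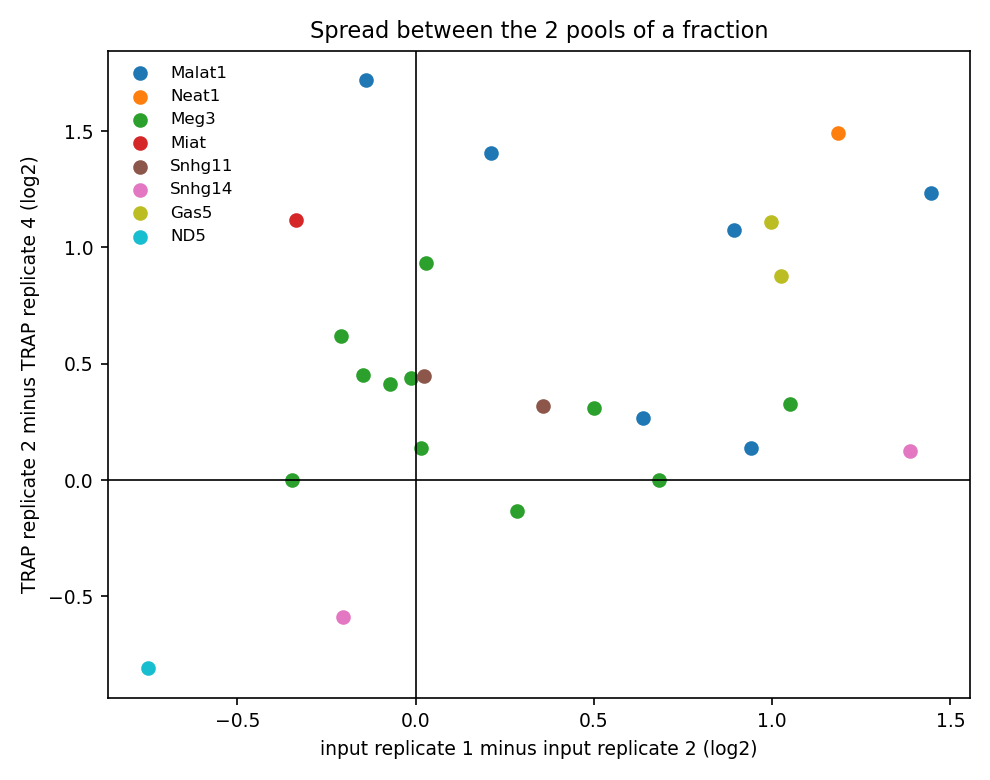
Difference between the arrays of a fraction for the 26 member probe sets above background, with input replicate 1 minus input replicate 2 on the horizontal axis and TRAP replicate 2 minus TRAP replicate 4 on the vertical axis (both log2), coloured by gene. Most points lie above 0 on the vertical axis, and ND5 lies at -0.75 and -0.81.

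Over the 4 arrays, the genes closest to Malat1, by the root mean square log2 distance of brightest probe sets among 10006 other genes above background, were Gja1 (0.69), Qk (0.70) and Oip5os1 (0.74). For Meg3 they were Mobp (0.59), Oip5os1 (0.63) and Zic1 (0.66). For ND5 they were Reep3 (1.52), Nfia (1.65) and Itgav (1.71). These distances combine the difference with the level, which depends on the probes and cannot be compared between genes, so they only describe the signals.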

How the data were processed

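Midbrain RNA was amplified with a 2-cycle kit and hybridised to Affymetrix mouse expression arrays. The authors processed the arrays with GCRMA (version not given in the sources used here), which gave the deposited log2 values, 1 per probe set and array. The array number limits the precision. Among 45101 probe sets, 64 are Affymetrix controls and were not tested. The annotation gives 34945 of the others 1 symbol, 932 several and 9160 none. TRAP and input were compared over 45037 probe sets with limma 3.58.1 in R 4.3.3 (2-sided, Benjamini-Hochberg adjustment, threshold 0.05), without further normalization. On 15551 probe sets the values are identical within both fractions (9920 of them called), and their p reflects no spread. They also enter the variance estimate and the adjustment that all probe sets share, so other adjusted p values depend on them. With values under 50 units raised to 50, Oip5os1 kept its difference of -2.56. Its adjusted p from limma went from 0.00929 to 0.0562. Lists used the probe set of each gene with the highest mean. A p-value weighs the fractions against the spread between pools. The fit takes all 4 arrays as independent, although TRAP replicate 2 and input replicate 2 share a number and may come from the same pool. Named genes were all members, comparison genes above background that passed and the brightest 3 of each noncoding list that did not, neighbouring genes, markers and the nearest genes over the arrays. The members and lists were chosen with earlier results of these data known. Quantile normalization, centring, a fit above background, a background of 100 units, a floor, an intensity trend, means per gene and left-out arrays were tried.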

Additional observations from a re-analysis of the deposited data

How the results depend on the processing

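The number of member probe sets called lower (19) was 7 with values under 50 units raised to 50 and ranged from 9 to 10 with 1 array left out, and the number of member genes called lower on the brightest probe set (5) was 1 with raised values and 1 to 2 with 1 array left out. Of the other noncoding RNA genes, 6 called lower became 14 after centring on bright probe sets, 3 with raised values, 3 with a background of 100 units and 2 to 4 with 1 array left out, and 0 called higher became 1 (Pantr1, named after its values were seen) after centring, in the fit above background and with an intensity trend, and 0 to 1 with 1 array left out. The 14 complex I subunits called higher became 6 after quantile normalization, 3 with raised values and 5 to 8 with 1 array left out. The other counts stayed within 1.5 times. The shares called over all genes belong to the values as reported, and none is given for the other settings. Centring lowers all differences, with the median over all probe sets above background going from 0.44 to 0.03. Nothing is therefore read from how these counts change. The 5 member genes called lower are out of 8 above background, beside 6.87% of all genes above background. As the genes were chosen from this contrast, nothing is read from that count. Of 97 recomputed values without a test 79 moved by less than the spread between arrays, and of 144 with a test 109 kept their side of the threshold, 30 lost it and 5 gained it. Among the 97, the fit above background, the floor and the intensity trend left the differences unchanged. A left-out array can shift a difference only by less than the gap between the arrays of its fraction. The 79 therefore say little about how stable the differences are. 0 of the called values changed sign, while Norad, Ube3a and both bright probe sets of Gas5, which passed no test, took both signs. As means of all probe sets of a gene, dim ones included, the differences were -3.65 for Malat1, -2.43 for Neat1, -3.98 for Meg3, -2.98 for Miat, -2.75 for Snhg11, -1.39 for Snhg14 and -1.43 for Gas5. No mean per gene was counted for probe sets. No paired analysis was possible because the fractions share only 1 replicate number. The cause of these shifts was not tested. With 1 array left out, the lone array of that fraction is assumed to vary like the pair of the other.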
